A study of Homo sapiens with 6 samples.

Results

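The genes described here build and control the kinetochore, the protein assembly on each centromere that binds spindle microtubules. Members were the protein-coding rows of the gene table named CENP plus 1 letter, and 32 named genes of the outer kinetochore, the spindle checkpoint, the chromosomal passenger complex and the mitotic spindle. This gave 53 genes of the 58825 in the table, 21 of them named CENP. The cells were MDA-MB-231, a cell line grown from a human breast tumour of the triple-negative kind. They were exposed for 24 h to the solvent (DMSO, 3 libraries) or to disulfiram together with copper (DSF/Cu, 0.2 µM, 3 libraries), and each library pooled 3 wells. Disulfiram inhibits aldehyde dehydrogenases and its main metabolite binds copper. No library had disulfiram or copper alone, and all 6 libraries came from 1 cell line. The labels do not state whether the repeats were grown as separate cultures, and p-values here reflect only the variation among these 6 libraries, possibly technical.

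Centromeres are marked by nucleosomes that hold the histone variant CENP-A. A set of proteins called the constitutive centromere-associated network (CCAN) sits on this chromatin through the cell cycle, and the KMN network (Knl1, Mis12 and Ndc80 complexes) joins it to microtubules in mitosis. Unattached kinetochores recruit checkpoint proteins that hold back anaphase, and the passenger complex with Aurora B releases faulty attachments. Transcripts of many of these genes are known to be most abundant around G2 and mitosis, under the control of a repressor complex that binds a short promoter element, the cell cycle genes homology region (TTTGAA).

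Stretches of 6 promoters are given to show members with and without this element: the genes of 5 of them fell after DSF/Cu and *CENPQ* rose. Each stretch holds the 130 bases before the RefSeq gene start (GRCh38.p14). They lie at chr2:26785926-26786055, plus strand for *CENPA*, chr16:23678759-23678888, plus strand for *PLK1*, chr1:37692386-37692515, plus strand for *CDCA8*, chr15:40160939-40161068, plus strand for *BUB1B*, chr4:103198344-103198473, minus strand for *CENPE* and chr6:49463240-49463369, plus strand for *CENPQ*. Capitals mark TTTGAA and CCAAT (the box bound by NF-Y) on either strand, so that TTCAAA and ATTGG are also marked, and in *CDCA8* the last of these overlaps TTTGAA by 1 base.
CENPA: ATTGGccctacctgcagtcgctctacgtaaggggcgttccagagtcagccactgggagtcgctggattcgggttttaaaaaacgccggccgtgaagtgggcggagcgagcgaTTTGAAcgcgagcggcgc
PLK1: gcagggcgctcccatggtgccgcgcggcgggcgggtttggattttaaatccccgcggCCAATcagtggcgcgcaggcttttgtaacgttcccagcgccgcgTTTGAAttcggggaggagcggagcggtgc
CDCA8: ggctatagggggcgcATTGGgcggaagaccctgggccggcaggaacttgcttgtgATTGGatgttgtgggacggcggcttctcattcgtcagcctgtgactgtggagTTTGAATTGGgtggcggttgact
BUB1B: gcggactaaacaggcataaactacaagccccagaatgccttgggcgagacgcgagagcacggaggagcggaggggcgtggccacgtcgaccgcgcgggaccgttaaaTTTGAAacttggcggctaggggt
CENPE: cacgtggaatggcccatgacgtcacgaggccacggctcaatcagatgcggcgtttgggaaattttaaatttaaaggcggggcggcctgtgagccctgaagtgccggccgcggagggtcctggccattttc
CENPQ: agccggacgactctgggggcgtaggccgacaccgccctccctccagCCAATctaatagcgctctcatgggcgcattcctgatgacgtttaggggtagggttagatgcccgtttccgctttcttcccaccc
The first base of TTTGAA lay 18 bases before the start in *CENPA*, 29 in *PLK1*, 23 in *CDCA8* and 23 in *BUB1B*. The *CENPE* stretch held neither motif, which says only that these letters are not in it, and *CENPQ* held 1 CCAAT. The table's own start of *CENPA* lies far upstream of the RefSeq start used here.

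The libraries held 55563223 to 70883177 counts, and the groups separated along the leading principal component (55.4% of the variance). Levels below are CPM, a gene's count as a share of its library's TMM-scaled total. The labelled line's markers *VIM*, *CD44*, *AXL*, *CAV1* and *MSN* were all well counted, at means of 294 CPM or more in DMSO. *AXL* and *VIM* were called lower (log2 change -0.76 and -0.27, edgeR adjusted p = 0.000139 and 0.0208) and *MSN* higher (0.57, adjusted p = 0.000273). *CD44* and *CAV1* were not called, and *CAV1* was spread in DMSO, at 191, 247 and 454 CPM. Of the luminal markers *ESR1* and *PGR* were at means under 1 CPM in both groups, *GATA3* and *EPCAM* at 2.82 and 7.30 CPM in DMSO and 3.44 and 4.49 CPM in DSF/Cu, and *KRT19* fell from 126 to 73.8 CPM. Both *EPCAM* and *KRT19* were called lower, and the other luminal markers were not called. Of the immune markers *CD3E* had no count in any library and *PTPRC* had 12 and 2 counts in DSF/Cu replicates 1 and 3 and none elsewhere. *CD14* had 17, 30 and 8 counts in DMSO and 127, 67 and 77 in DSF/Cu, and was called higher (log2 change 2.61 ± 0.54, edgeR adjusted p = 0.0106) at means of 0.264 and 1.62 CPM. Of the fibroblast and endothelial markers *COL1A1* was called higher, at 2.26 and 6.07 CPM, and *VWF*, *PDGFRB* and *PECAM1* had means under 1.5 CPM in both groups. The part of these markers' cell types in the results below was not tested. Scaling moved all genes: the median log2 change over the 18229 genes tested was 0.002 with TMM and -0.182 with total counts, and changes below are relative to TMM unless said otherwise. All 53 members passed the filter on low counts. For 12 of them over 10% of exon bases are shared with another gene, so part of their counts may belong there. Among these are *SGO1* (17.7%), *CENPU* (11.7%), *PLK1* (11.6%), *CENPT* (10.8%) and *BUB1B* (10.2%), and the others are named below. Gene coordinates are those of the deposited table, whose human gene IDs belong to GRCh38. A lower level in bulk RNA can come from fewer cells that hold the transcript or from less of it per cell, and those possibilities cannot be told apart in these libraries.

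Transcripts of the kinetochore motor *CENPE*, the centromeric histone *CENPA*, the mitotic kinase *PLK1* and the corona protein *CENPF* fell at least 2-fold after DSF/Cu. Of the 53 genes, 23 fell at an edgeR adjusted p under 0.05, against 16.8% of all genes tested, and 3 rose, against 18.5%. The remaining 27 were not called, so that 26 were called in either direction, against 35.2% of all genes tested. Under total-count scaling 33 were called lower and 2 higher. That scaling also put the median log2 change of all genes tested at -0.182. The share of all genes called was not counted for it. With TMM the members' median log2 change was -0.29. The fall was at least 2-fold for 4 members, against 1.87% of all genes tested. Every DSF/Cu library lay below every DMSO library for 30 members, against 25.2% of all genes tested.

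**Figure D1:**
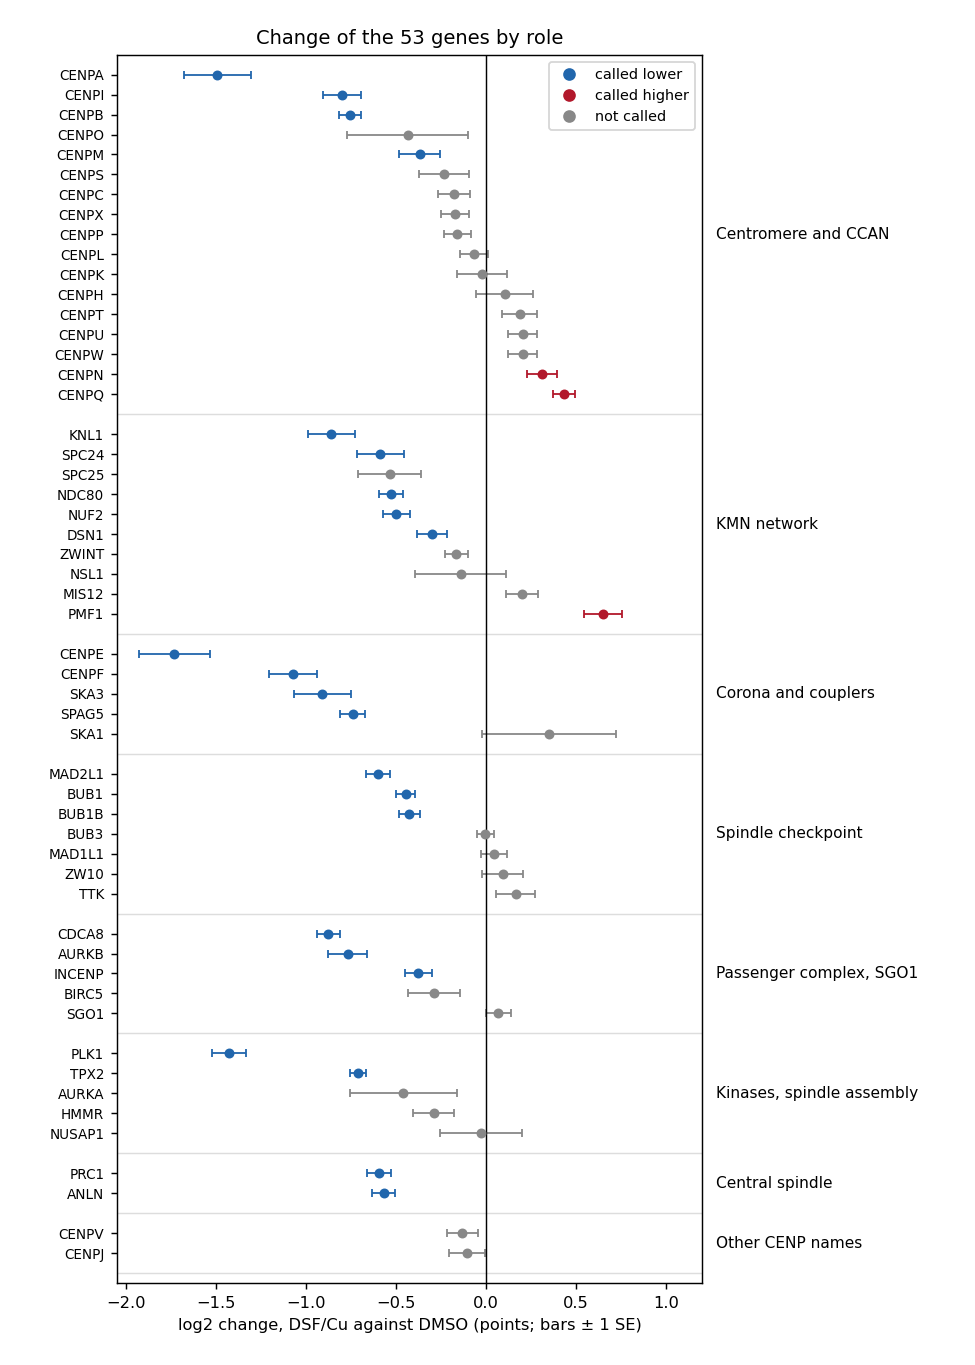
Log2 change after DSF/Cu against DMSO (x axis) for each of the 53 genes (y axis), grouped by role, with bars of 1 SE from edgeR and colours for the call at an adjusted p under 0.05. The couplers *CENPE* and *CENPF*, with *CENPA* and *PLK1*, lie beyond -1, while *PMF1*, *CENPQ* and *CENPN* are the 3 genes called higher.

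The summed level of the 53 genes was 4455, 4596 and 4487 CPM in the DMSO libraries and 3206, 3392 and 3457 CPM in the DSF/Cu libraries. The groups did not overlap in this sum. In the DSF/Cu libraries 39, 40 and 37 of the 53 genes lay below their DMSO mean. In the DMSO libraries, which make up that mean, 31, 17 and 28 did. No such count was made over all genes tested.

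**Figure D2:**
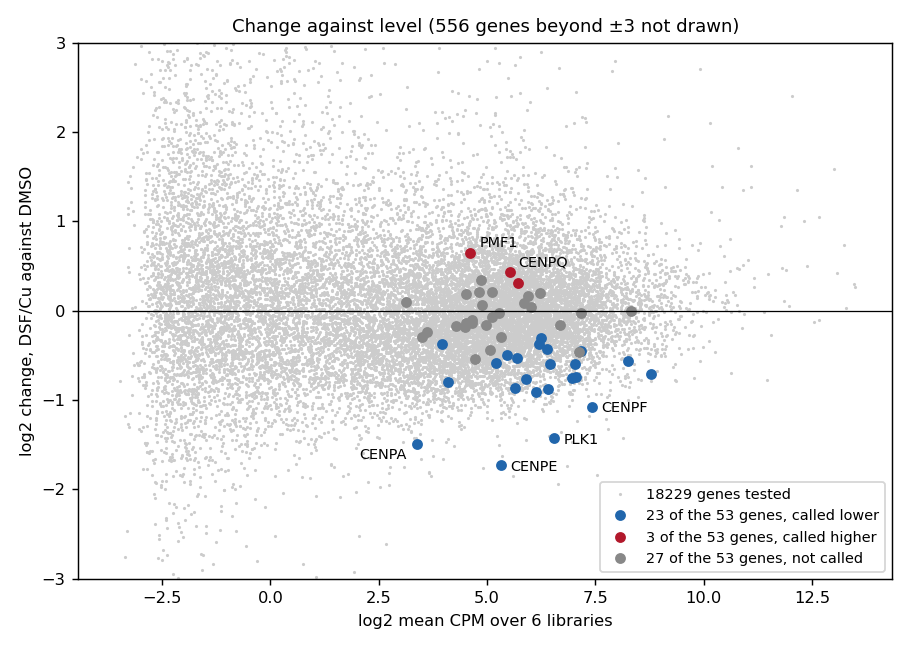
Log2 change (y axis) against log2 mean CPM over the 6 libraries (x axis) for the genes tested (grey points) and the 53 genes (coloured by call). Of the 18229 genes tested, 556 with a change of more than 3 log2 units either way are not drawn. *CENPE*, *CENPA*, *PLK1* and *CENPF* are the members furthest below 0, at log2 changes of -1.73, -1.49, -1.43 and -1.07.

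Of the 17 genes of the centromeric nucleosome and the CCAN, 4 fell (23.5%, against 16.8% of all genes tested), 2 rose (11.8%, against 18.5%) and 11 were not called (64.7%, against 64.8%), with a median log2 change of -0.16. These shares are near those over all genes. *CENPA* (chr2:26764289-26801067, plus strand in the table) encodes the histone variant that marks the centromere. Its level was 16.3, 17.4 and 12.4 CPM in DMSO and 5.67, 4.5 and 6.22 CPM in DSF/Cu. The DSF/Cu libraries were all under the lowest DMSO library, at a mean 2.81-fold lower (log2 change -1.49 ± 0.19 SE, edgeR adjusted p = 0.00151). *CENPB* (chr20:3783851-3786740, minus strand), which binds a motif in centromeric alpha-satellite DNA, held 158, 160.1 and 152 CPM in DMSO and 87.6, 92.9 and 98.0 CPM in DSF/Cu and fell by 0.76 ± 0.06 (adjusted p = 0.000306). *CENPI* (chrX:101098218-101163681, plus strand), a subunit of the CENP-H/I/K/M complex of the CCAN, held 21.6, 21.6 and 22.3 CPM in DMSO and 11.3, 14 and 12.2 CPM in DSF/Cu and fell by 0.80 ± 0.11 (adjusted p = 0.00196). The groups overlapped in neither gene.

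Other subunits of the same complex as *CENPI* moved less. *CENPM* went from 17.4 ± 1.40 to 13.5 ± 1.27 CPM (SD, n = 3 libraries per group), a change of -0.37 ± 0.11 that was called at an edgeR adjusted p of 0.0455. That call did not last: it was lost on leaving out DMSO replicate 1 (adjusted p = 0.0831), DMSO 2 (0.0715), DMSO 3 (0.126), DSF/Cu 1 (0.121) or DSF/Cu 2 (0.114). *CENPH* and *CENPK* gave 0.10 ± 0.16 and -0.02 ± 0.14 with overlapping groups and were not called.

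*CENPQ* (chr6:49463370-49493107, plus strand), a subunit of the CENP-O/P/Q/U complex that helps *CENPE* and *PLK1* products dock at the kinetochore, moved the other way. Its level was 37.5, 40.5 and 39.3 CPM in DMSO and 52.2, 53.5 and 52.8 CPM in DSF/Cu, with no overlap and little spread (log2 change 0.44 ± 0.06, edgeR adjusted p = 0.00247). Under total-count scaling it was 0.25 with an adjusted p of 0.021. *CENPN*, which reads the CENP-A nucleosome directly, held 46.4, 47.9 and 45.3 CPM in DMSO and 54.7, 54.6 and 64.1 CPM in DSF/Cu and was called higher at 0.31 ± 0.08 (edgeR adjusted p = 0.0267). It lost that call under total-count scaling (0.13, adjusted p = 0.312) and on leaving out DMSO replicate 1 (adjusted p = 0.0737), DMSO 2 (0.0632) or DMSO 3 (0.0889). Part of the exons of *CENPN* (12.8%) overlap the gene *CMC2* on the other strand, and the strand setting of the counting is not given in the sources used here.

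For the remaining CCAN genes no change was called, with edgeR adjusted p-values from 0.0924 for *CENPU* to 0.926 for *CENPK*. *CENPC*, the scaffold that joins the nucleosome to the Mis12 complex, gave -0.18 ± 0.09. *CENPT*, the second such scaffold, gave 0.19 ± 0.10, and its partners *CENPW*, *CENPS* and *CENPX* gave 0.20 ± 0.08, -0.23 ± 0.14 and -0.17 ± 0.08. *CENPW* was called higher without DSF/Cu replicate 3 (edgeR adjusted p = 0.0406). Under total-count scaling *CENPC*, *CENPX*, *CENPP* and *CENPL* were called lower (adjusted p = 0.0278, 0.0133, 0.0131 and 0.0382). *CENPL*, *CENPP* and *CENPU* gave -0.07 ± 0.08, -0.16 ± 0.08 and 0.20 ± 0.08. *CENPO* held 37.1, 23.4 and 56.2 CPM in DMSO and 34.8, 20.6 and 30.8 CPM in DSF/Cu, a spread wider than the difference between the groups. *CENPS* shares 64.7% of its exon bases with the readthrough gene *CENPS-CORT*, *CENPP* shares 38.0% with *IPPK* and *CENPO* 27.0% with *ADCY3*, so their counts are uncertain. Of all 17 genes, 8 were called lower and 1 higher under total counts. With that scaling the median log2 change of all genes tested was -0.182, and the share of them called was not counted.

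The KMN network held both falls and a rise. Of its 10 genes, 5 fell (50.0%, against 16.8% of all genes tested), 1 rose (10.0%, against 18.5%) and 4 were not called. The median log2 change was -0.40. *KNL1* (chr15:40594020-40664342, plus strand), the scaffold on which the BUB proteins assemble, held 67.3, 60.1 and 66.8 CPM in DMSO and 28.9, 39.3 and 38.8 CPM in DSF/Cu, 1.81-fold lower in DSF/Cu with no overlap (log2 change -0.86 ± 0.13, edgeR adjusted p = 0.00328). Its binding partner *ZWINT* gave -0.16 ± 0.07 and was not called (adjusted p = 0.0969), although it was called lower without DSF/Cu replicate 2 (0.0484) and under total counts (0.00723).

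The 4 subunits of the Ndc80 complex, the rod that grips the microtubule, were all lower on average, and 3 of the 4 were called. *NDC80* held 57.8, 62.7 and 61.2 CPM in DMSO and 40.1, 42.4 and 43.6 CPM in DSF/Cu (log2 change -0.53 ± 0.07, edgeR adjusted p = 0.00159). *NUF2* held 47.8, 55.6 and 52.0 CPM in DMSO and 36.7, 36.8 and 36.4 CPM in DSF/Cu (-0.50 ± 0.07, adjusted p = 0.00314). For *SPC24* the values were 38.3, 50.2 and 44.1 CPM in DMSO and 31.0, 25.7 and 31.6 CPM in DSF/Cu (-0.59 ± 0.13, adjusted p = 0.0136). For each of these the groups did not overlap. *SPC25* held 27.9, 32.4 and 33.4 CPM in DMSO and 16.9, 26.8 and 21.0 CPM in DSF/Cu, also without overlap, but its DSF/Cu libraries were spread and it was not called (-0.53 ± 0.17, adjusted p = 0.054). It was called without DSF/Cu replicate 2, its highest DSF/Cu library (-0.72, adjusted p = 0.0174), and under total counts (0.0202). The 4 changes lay within 0.09 log2 units of each other.

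On the authors' FPKM scale, which corrects for transcript length, the Ndc80 subunits were also close in level. In DMSO they ran from 13.9 ± 0.963 FPKM for *NUF2* to 15.4 ± 1.36 for *SPC25* (SD, n = 3), a ratio of 1.11 between the highest and the lowest. In DSF/Cu they ran from 8.29 ± 0.911 for *SPC24* to 9.47 ± 0.570 for *NDC80*, a ratio of 1.14.

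The Mis12 complex, which links the CCAN to Ndc80 and Knl1, did not move as a unit. *DSN1* held 78.5, 87.2 and 85.2 CPM in DMSO and 61.2, 72.3 and 70.2 CPM in DSF/Cu and fell by 0.30 ± 0.08 (edgeR adjusted p = 0.0316). Its call was lost on leaving out DMSO replicate 2 (adjusted p = 0.0945), DMSO 3 (0.0882), DSF/Cu 1 (0.0635) or DSF/Cu 3 (0.0604). *PMF1* (chr1:156212993-156240040, plus strand) was the member with the largest rise: 18.5, 20.9 and 17.7 CPM in DMSO and 30.8, 31.9 and 26.9 CPM in DSF/Cu, with no overlap (log2 change 0.65 ± 0.10, adjusted p = 0.00415, and 0.46 with an adjusted p of 0.0119 under total counts). The readthrough gene *PMF1-BGLAP* covers 23.3% of the *PMF1* exon bases and gave 0.02 ± 0.29, so the split of reads between them is uncertain. *MIS12* and *NSL1* gave 0.20 ± 0.09 and -0.14 ± 0.25 and were not called (adjusted p = 0.131 and 0.711), and *NSL1* was low in DMSO replicate 1 (15.2 CPM, against 29.8 and 26.8 in the other DMSO libraries). Mean FPKM of the 4 subunits spanned a ratio of 17.7 in DMSO and 16.3 in DSF/Cu, with *NSL1* lowest in both.

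**Figure D3:**
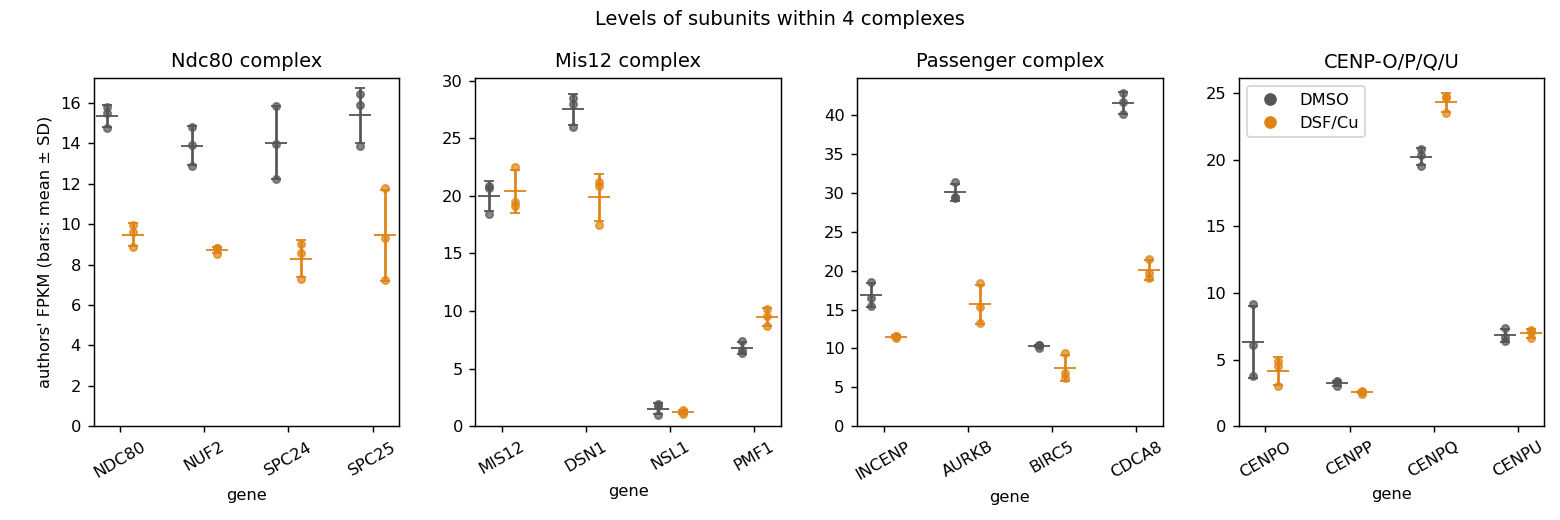
The authors' FPKM (y axis, linear from 0) of each subunit (x axis) in 4 complexes, with 1 point per library and the mean ± SD (n = 3) of DMSO in grey and of DSF/Cu in orange. The 4 Ndc80 subunits lie between 13.9 and 15.4 FPKM on average in DMSO, while *PMF1* and *CENPQ* are higher in DSF/Cu than in DMSO.

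The proteins of the fibrous corona and the couplers that follow moving microtubule ends had the lowest median of the 8 roles, at -0.91. Of the 5 genes, 4 fell (80.0%, against 16.8% of all genes tested). *CENPE* (chr4:103105806-103198409, minus strand), a kinesin that carries chromosomes to the spindle equator, held 65.2, 61.8 and 57.8 CPM in DMSO and 14.2, 17.0 and 24.5 CPM in DSF/Cu. It was 3.32-fold lower (log2 change -1.73 ± 0.20, edgeR adjusted p = 0.00112), and its highest DSF/Cu library was well under its lowest DMSO library. *CENPF* (chr1:214603195-214664571, plus strand), a large corona protein that binds dynein regulators, held 244, 235 and 223 CPM in DMSO and 89.3, 114 and 129.7 CPM in DSF/Cu and was 2.1-fold lower (-1.07 ± 0.13, adjusted p = 0.00151). In both genes DSF/Cu replicate 1 was lowest and replicate 3 highest.

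*SKA3*, of the Ska complex that keeps Ndc80 on shortening microtubules, held 93.5, 77.2 and 102 CPM in DMSO and 41.5, 45.2 and 58.4 CPM in DSF/Cu and fell by 0.91 ± 0.16 (edgeR adjusted p = 0.00548). *SPAG5* (astrin), which marks stable attachments, held 164, 177 and 157 CPM in DMSO and 93.9, 104 and 100.1 CPM in DSF/Cu and fell by 0.74 ± 0.07 (adjusted p = 0.000533). *SKA1*, the partner of *SKA3*, was not called: it held 30.4, 34.4 and 11.4 CPM in DMSO and 32.1, 33.6 and 31.5 CPM in DSF/Cu. DMSO replicate 3 stood apart there, and without it the log2 change went from 0.35 to -0.0066 (adjusted p = 0.971).

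Among checkpoint genes, those for the BUB kinases and *MAD2L1* fell and the others were not called with TMM. Of 7 genes, 3 fell (42.9%, against 16.8% of all genes tested) and none rose (against 18.5%), with a median of -0.003. *MAD2L1* (chr4:120055623-120066858, minus strand), whose product binds and blocks CDC20, held 99.1, 112 and 108 CPM in DMSO and 67.4, 71.6 and 71.8 CPM in DSF/Cu (log2 change -0.60 ± 0.07, edgeR adjusted p = 0.00101). *BUB1* (chr2:110637698-110678107, minus strand), the kinase that marks centromeric histones for shugoshin, held 163, 168 and 168 CPM in DMSO and 118, 127 and 121 CPM in DSF/Cu (-0.45 ± 0.05, adjusted p = 0.00115). *BUB1B*, which encodes BubR1 of the checkpoint complex, held 98.3, 90.9 and 96.5 CPM in DMSO and 68.2, 72.6 and 71.6 CPM in DSF/Cu (-0.43 ± 0.06, adjusted p = 0.0022). In all 3 genes the groups were apart.

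*TTK* (chr6:80003887-80042527, plus strand), the kinase Mps1 that starts checkpoint signalling, held 56.4, 60.2 and 56.6 CPM in DMSO and 55.0, 67.0 and 72.5 CPM in DSF/Cu. Its groups overlapped and it was not called (0.17 ± 0.11, edgeR adjusted p = 0.287), except that it was called higher without DSF/Cu replicate 1 (0.27, adjusted p = 0.0368). *BUB3*, the WD-repeat partner of both BUB kinases, held 311, 327 and 325 CPM in DMSO and 316, 315 and 330.2 CPM in DSF/Cu (-0.00 ± 0.05), the smallest change of any member with TMM, but it was called lower under total counts (-0.19, adjusted p = 0.0229). *MAD1L1*, which presents MAD2 at the kinetochore, and *ZW10*, of the complex that recruits dynein, gave 0.05 ± 0.07 and 0.09 ± 0.12 (adjusted p = 0.663 and 0.587), and like *TTK* they were below 0 under total counts without being called (-0.14, -0.09 and -0.02). Within the checkpoint complex the members thus had unequal changes: on the FPKM scale *BUB3* was 1.85 times *BUB1B* in DMSO and 2.48 times in DSF/Cu.

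Of the chromosomal passenger complex and shugoshin, 3 of 5 genes fell (60.0%, against 16.8% of all genes tested) and none rose (against 18.5%). Their median was -0.38. *CDCA8* (chr1:37692481-37709719, plus strand), which encodes borealin, held 113, 112 and 107 CPM in DMSO and 58.4, 64.3 and 58.2 CPM in DSF/Cu (log2 change -0.88 ± 0.06, edgeR adjusted p = 0.000218). *AURKB* (chr17:8204733-8210600, minus strand), the kinase of the complex, held 77.3, 73.6 and 73.1 CPM in DMSO and 38.1, 42.7 and 50.7 CPM in DSF/Cu (-0.77 ± 0.11, adjusted p = 0.00257). *INCENP*, the scaffold that activates Aurora B, held 90.7, 81.7 and 76.6 CPM in DMSO and 64.2, 64.2 and 63.6 CPM in DSF/Cu (-0.38 ± 0.07, adjusted p = 0.00906). The groups of these 3 genes did not overlap.

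*BIRC5* (survivin), the fourth subunit, held 44.0, 44.3 and 42.9 CPM in DMSO and 30.5, 32.7 and 44.2 CPM in DSF/Cu. Its DSF/Cu replicate 3 reached the DMSO level, and it was not called (-0.29 ± 0.14, edgeR adjusted p = 0.169). It was called lower without that library (-0.46, adjusted p = 0.009) and under total counts (0.0485). *SGO1*, which protects cohesin at centromeres, gave 0.07 ± 0.07 and was not called (adjusted p = 0.502), with a value of -0.12 under total counts.

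The mitotic kinases and spindle assembly factors held both a large and a small change. *PLK1* (chr16:23677656-23690366, plus strand), a kinase needed from entry into mitosis to cytokinesis, held 148, 137 and 126 CPM in DMSO and 48.3, 56.7 and 47.7 CPM in DSF/Cu. It was 2.69-fold lower (log2 change -1.43 ± 0.10, edgeR adjusted p = 0.000169). *TPX2* (chr20:31739271-31801805, plus strand), which activates Aurora A on the spindle and had the highest level of all members in FPKM, held 545, 563 and 540.3 CPM in DMSO and 331, 343 and 333 CPM in DSF/Cu (-0.71 ± 0.04, adjusted p = 0.000113). For both, the gap between the groups was wider than either group's range.

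*AURKA* (chr20:56369389-56392296, minus strand), the kinase that TPX2 binds, held 135, 128 and 221 CPM in DMSO and 75.9, 143 and 133 CPM in DSF/Cu. The groups overlapped, with the highest library 1.73 times the lowest in DMSO and 1.89 times in DSF/Cu, and the change was not called (-0.46 ± 0.30, edgeR adjusted p = 0.289). *NUSAP1*, a microtubule-bundling protein, held 115, 192 and 127 CPM in DMSO and 159, 111 and 155 CPM in DSF/Cu and was not called (-0.03 ± 0.23, adjusted p = 0.938). It shares 62.2% of its exon bases with an overlapping protein-coding gene model on the same strand. *HMMR*, a spindle pole protein, held 13.0, 11.6 and 12.8 CPM in DMSO and 10.4, 9.21 and 10.9 CPM in DSF/Cu: these groups did not overlap, but the change of -0.29 ± 0.12 was not called (adjusted p = 0.0973) except under total counts (0.0193) and in the FPKM fits.

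Both genes of the central spindle and cytokinesis fell, against 16.8% of all genes tested. *PRC1*, which bundles the antiparallel microtubules of the central spindle, held 166, 158 and 149 CPM in DMSO and 105, 109 and 99.5 CPM in DSF/Cu (log2 change -0.59 ± 0.06, edgeR adjusted p = 0.00092). *ANLN* (anillin), a scaffold of the contractile ring, held 373, 381 and 340.0 CPM in DMSO and 240.3, 237 and 261 CPM in DSF/Cu (-0.57 ± 0.07, adjusted p = 0.00109). *PRC1* shares 57.6% of its exon bases with another gene model on the same strand, so that part of its count may belong there. *CENPJ*, which acts in centriole growth rather than at the kinetochore, and *CENPV* gave -0.11 ± 0.10 and -0.13 ± 0.09, and neither was called with TMM, though *CENPV* was lower under total counts (adjusted p = 0.0296).

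**Figure D4:**
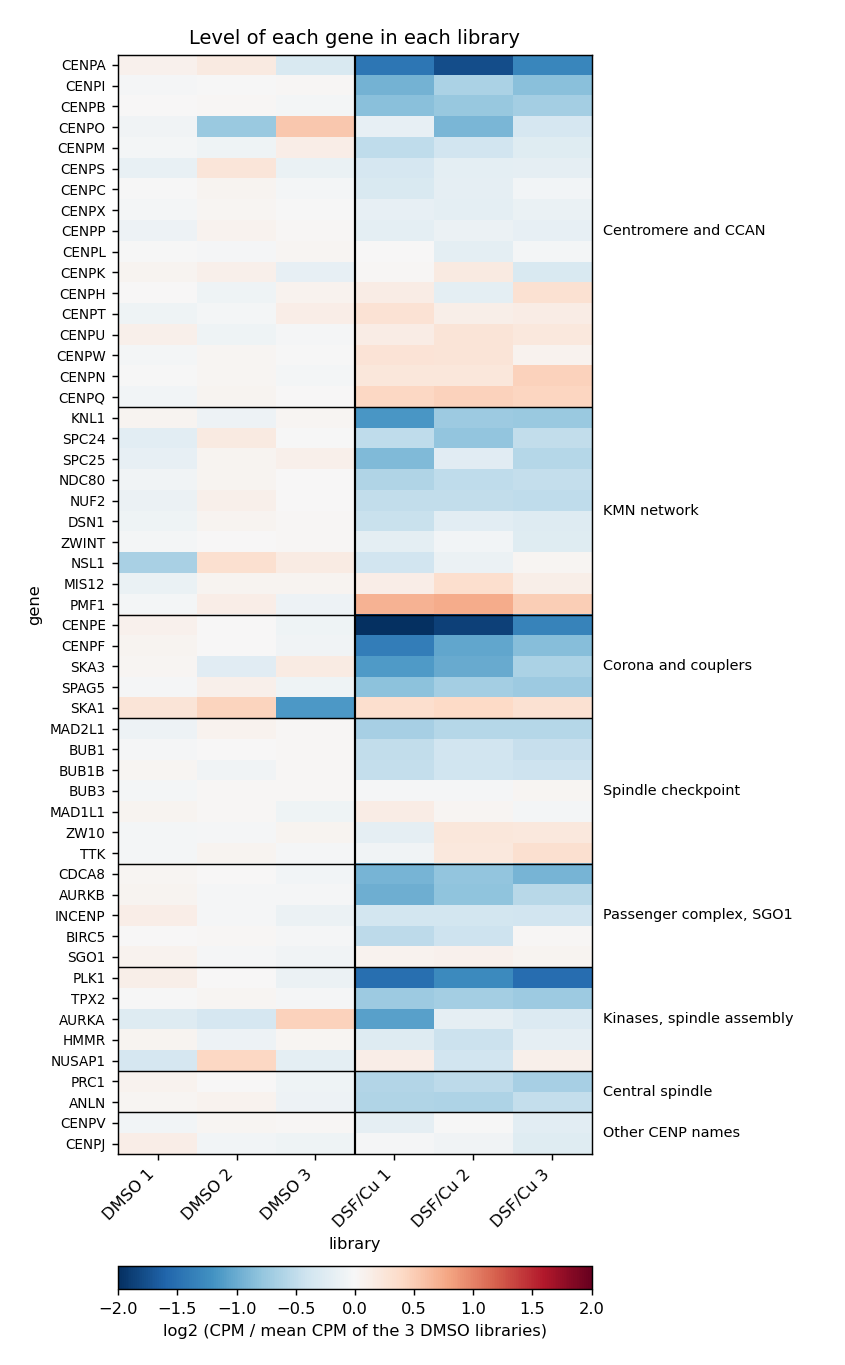
Level of each of the 53 genes (rows, grouped by role) in each of the 6 libraries (columns), as the log2 ratio of its CPM to the mean of the 3 DMSO libraries (colour, blue lower and red higher). *CENPE*, *CENPA* and *PLK1* are dark blue in all 3 DSF/Cu libraries, and single cells of the map stand apart for *SKA1* in DMSO replicate 3, *AURKA* in DSF/Cu replicate 1 and *CENPO* in both groups.

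Spread within groups was small for most members. The median coefficient of variation was 5.93% over the 3 DMSO libraries and 8.20% over the 3 DSF/Cu libraries, and it passed 20% for 5 genes in each group. In DMSO it was largest for *SKA1* (48.4%), *CENPO* (42.4%), *NSL1* (32.2%), *AURKA* (32.1%) and *NUSAP1* (28.9%). In DSF/Cu it was largest for *AURKA* (31.0%), *CENPE* (28.7%), *CENPO* (25.5%), *SPC25* (22.9%) and *BIRC5* (20.6%). Among the genes past 20% in either group, *CENPE* alone was called.

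Promoter windows from RefSeq (250 bases before to 50 after the start) were found for 43 of the 53 genes. TTTGAA, on either strand, was present within 50 bases of the start in 20 of the 43 (46.5%), against 4.46% of the 10564 tested protein-coding genes with a window and 5.77% of all 27305 genes with one. Over the whole window the shares were 51.2% of members, 14.1% of tested protein-coding genes and 18.2% of all genes. CCAAT, on either strand, was in the window of 26 of 43 members (60.5%), against 43.2% of tested protein-coding genes and 39.7% of all genes. The palindrome TTCGAA was in the windows of 4 members (9.30%), against 2.32% and 1.82%. It lay within 50 bases of the start in all 4. *NDC80* also held TTTGAA there, while *BUB1*, *SGO1* and *CENPW* count below as genes without TTTGAA. Of these *BUB1* fell, and *SGO1* and *CENPW* were not called. Some matches of TTTGAA and CCAAT overlap.

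The members' changes are given by motif as a description, without a test. For TTTGAA near the start, of the 20 genes with it 13 fell, with a median log2 change of -0.53. Of the 23 without it 7 fell, with a median of -0.14. The share that fell over all genes tested was 16.8%. CCAAT was taken over the whole window, an unlike stretch, and its split ran the other way. Of the 26 genes with CCAAT 10 fell, with a median of -0.17. Of the 17 without it 10 fell, with a median of -0.44. *CENPE*, *CENPI*, *CENPB*, *AURKB*, *SPC24*, *BUB1* and *DSN1* fell without TTTGAA near the start, and *CENPN* had it and was called higher. A match of letters is not a binding site, and no binding was measured.

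**Figure D5:**
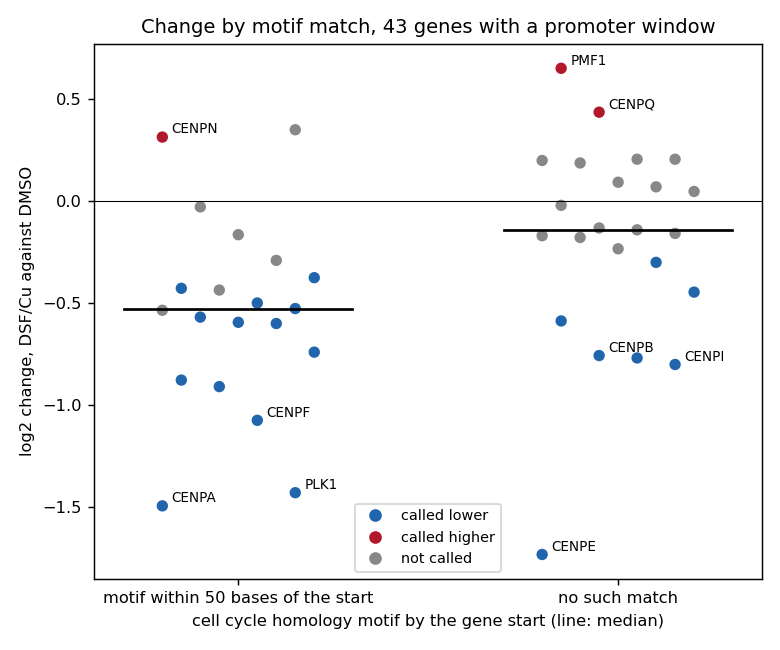
Log2 change after DSF/Cu (y axis) of the 43 genes with a promoter window, split by whether TTTGAA, on either strand, lies within 50 bases of the start (x axis), with 1 point per gene, colours for the call and a line at the median. The median is -0.53 for the 20 genes with a match and -0.14 for the 23 without, and both sets hold falls of more than 1.4 log2 units.

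Genes outside the set that act on the same structures were examined as 6 lists of 80 genes in all, of which 33 fell (41.2%, against 16.8% of all genes tested) and 11 rose (13.8%, against 18.5%). Among factors that load CENP-A at centromeres, 3 of 6 fell (50.0%, against 16.8% of all genes tested) and none rose (against 18.5%). *OIP5* fell by 0.87 ± 0.10 (edgeR adjusted p = 0.0011). The CENP-A chaperone *HJURP* held 183, 199 and 189 CPM in DMSO and 99.5, 36.3 and 106 CPM in DSF/Cu. DSF/Cu replicate 2 was far below the other libraries, and the change of -1.23 ± 0.37 (adjusted p = 0.0419) lost its call when DMSO replicate 1 (0.0898), DMSO replicate 2 (0.1), DMSO replicate 3 (0.0912) or DSF/Cu replicate 1 (0.0677) was left out. With no filter on low counts, and with the replicate block, the list of loading factors held 2 called falls rather than 3. The loading factors *MIS18A*, *RBBP7* and *NPM1* were not called with TMM scaling. The CENP-R gene *ITGB3BP*, a CCAN subunit outside the naming rule, gave 0.14 ± 0.09 and was not called.

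Among 19 genes of the anaphase-promoting complex with its activators, E2 enzymes and inhibitor, 8 fell (42.1%, against 16.8% of all genes tested). Another 4 rose (21.1%, against 18.5%), a share near that over all genes. *CDC20*, the activator that the checkpoint restrains, held 259.6, 253 and 262 CPM in DMSO and 135, 133 and 138 CPM in DSF/Cu (log2 change -0.93 ± 0.05, edgeR adjusted p = 5.7e-05). The inhibitor *FBXO5* fell by 0.87 ± 0.08 and the E2 enzyme *UBE2S* by 0.75 ± 0.09. Core subunits went both ways, with 4 called lower and 4 higher. *ANAPC4* and *ANAPC5* fell by 0.52 ± 0.07 and 0.45 ± 0.07, and *ANAPC1* and *ANAPC2* by 0.28 ± 0.06 and 0.31 ± 0.10 (named after their values were seen). *ANAPC1* lost its call when DMSO replicate 2 was left out (adjusted p = 0.0526), and *ANAPC2* (0.0466 with all libraries) when any library but DMSO replicate 2 was (0.0765 to 0.128). *ANAPC2* was also not called with no filter on low counts (0.0659) or with the replicate block (0.0635). *CDC23* and *CDC26* rose by 0.36 ± 0.06 and 0.49 ± 0.10 and *ANAPC10* and *ANAPC15* by 0.84 ± 0.20 and 0.54 ± 0.15. *ANAPC10* was not called on leaving out DMSO replicate 1 (adjusted p = 0.059), DMSO 2 (0.0672) or DMSO 3 (0.0541), and *ANAPC15* was called in neither these settings (0.0758, 0.0951 and 0.0856) nor without DSF/Cu replicates 1 (0.0793) or 3 (0.0851), nor under total counts (0.0993).

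Of 14 cohesin and separase genes, 4 fell (28.6%, against 16.8% of all genes tested) and 2 rose (14.3%, against 18.5%). The separase gene *ESPL1* held 43.2, 38.1 and 35.8 CPM in DMSO and 21.1, 16.7 and 17.5 CPM in DSF/Cu and fell by 1.08 ± 0.12 (edgeR adjusted p = 0.00104). Its inhibitor securin, *PTTG1*, fell by 0.48 ± 0.07, and *SGO2*, the second shugoshin, by 0.79 ± 0.09. Whether *SGO2* differed from *SGO1* was not tested. The loader *NIPBL* (0.35 ± 0.09) and the cohesin subunit *STAG2* (0.37 ± 0.11) were called higher. Under total-count scaling neither was (adjusted p = 0.233 and 0.281). *NIPBL* also lost its call on leaving out DMSO replicate 2 (0.069), DMSO replicate 3 (0.0645), DSF/Cu replicate 2 (0.0658) or DSF/Cu replicate 3 (0.0618), and *STAG2* on leaving out DMSO 1 (0.0858), DMSO 2 (0.122), DMSO 3 (0.121), DSF/Cu 2 (0.0605) or DSF/Cu 3 (0.0668).

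Of 14 further checkpoint and corona genes, 5 fell (35.7%, against 16.8% of all genes tested) and 2 rose (14.3%, against 18.5%). The dynein adaptor *SPDL1* (spindly) fell by 0.63 ± 0.07 (edgeR adjusted p = 0.000815) and *SKA2* by 0.30 ± 0.06, while *NDEL1*, a dynein regulator, rose by 0.54 ± 0.09 (adjusted p = 0.00455). *MAD2L1BP*, which takes checkpoint complexes apart, was called higher at 0.35 ± 0.09, but not under total counts (adjusted p = 0.191) or on leaving out DMSO replicate 1 (0.072), DMSO 3 (0.0756), DSF/Cu 1 (0.058) or DSF/Cu 3 (0.0626). Of 13 spindle pole and microtubule genes, 11 fell (84.6%, against 16.8%) and 1 rose (7.69%, against 18.5%), with a median of -0.69. *DLGAP5* (HURP) fell by 1.07 ± 0.06 (adjusted p = 8.39e-05), *GTSE1* by 1.09 ± 0.08 and *TACC3* by 0.81 ± 0.06. *CDK5RAP2*, a centrosomal protein, was called higher (0.32 ± 0.05), and it was not called under total counts (adjusted p = 0.115).

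Of 14 transcriptional regulators of G2/M genes, 2 fell and 2 rose (14.3% each way, against 16.8% and 18.5% of all genes tested), with a median of 0.05, shares no higher than those over all genes. *FOXM1*, an activator of G2/M genes, held 60.3, 56.0 and 55.1 CPM in DMSO and 40.0, 85.2 and 33.0 CPM in DSF/Cu. DSF/Cu replicate 2 was above the DMSO libraries and the other DSF/Cu libraries below them, and *FOXM1* was not called (-0.11 ± 0.34, edgeR adjusted p = 0.828). Without that library it was called lower (-0.64, adjusted p = 0.0118). *MYBL2* (B-Myb) held 229, 212 and 215 CPM in DMSO and 197, 191 and 179 CPM in DSF/Cu and was called lower at -0.21 ± 0.06 (adjusted p = 0.0313), but not on leaving out DMSO replicate 1 (0.0782), DMSO 2 (0.0554), DMSO 3 (0.0643), DSF/Cu 2 (0.0836) or DSF/Cu 3 (0.0943). *LIN54*, the subunit of the DREAM and MuvB complexes that binds TTTGAA, rose from 32.0 ± 2.58 to 64.4 ± 2.98 CPM (1.01 ± 0.08, adjusted p = 0.00034). *TFDP1*, the dimer partner of E2F proteins, fell by 0.64 ± 0.11. *LIN37*, of the same complexes as *LIN54*, was called higher at 0.61 ± 0.17, but not under total counts (adjusted p = 0.0894) or on leaving out DMSO replicate 1 (0.0961), DMSO 2 (0.0865), DSF/Cu 1 (0.0966) or DSF/Cu 3 (0.094).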

How the data were processed

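Poly(A) RNA was sequenced as paired-end libraries. The submitters' processing notes list StringTie 1.3.0, HISAT2 2.0 and Bowtie 0.12.2, with no step assigned to any, and a mouse build, but all 53 gene IDs are human and occur in GENCODE 29 (GRCh38), 20 of them with the same start and end. Which counter, strand setting and annotation were used is not given in the sources used here. Raw counts and FPKM (length-corrected values) for each gene and library were deposited by the authors, per the file headers. The header word Control was read as DMSO.

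Genes kept by filterByExpr (18229) were scaled by TMM and tested, two-sided, with edgeR 4.0.16 (quasi-likelihood F test, R 4.3.3), with Benjamini-Hochberg adjustment over all of them. A call is an adjusted p under 0.05. The SE is the absolute log2 change over the square root of F. CPM are TMM-scaled counts. Libraries of a group differed beyond sampling noise (chi-square per degree of freedom from 50.1 to 63.4), so none was a copy. The steps were tested on simulated data. Same-numbered libraries did not deviate together, so no pairing was used. Alternatives were total-count scaling, DESeq2 1.42.0, no filter on low counts, a replicate block, limma 3.58.1 on log2(FPKM + 1) or log2(FPKM + 0.1) for genes with a mean FPKM of at least 1, and leaving out each library.

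Members, roles, related lists and motifs were chosen with earlier results of these data known. Library values are given for up to 4 called members per role by adjusted p, called members that moved against the majority, and 13 fixed members, with some others added after their values were seen. Related genes were named by a like rule: up to 3 called genes per list by adjusted p, called genes that moved against the list's majority, and 6 fixed genes; 1 gene that this rule names is not reported here. Motif matches were counted per gene over all of its RefSeq windows (GRCh38.p14).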

Additional observations from a re-analysis of the deposited data

How the results depend on the processing

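Of the 23 members called lower, 20 kept call and direction in all 12 alternatives. The exceptions were *CENPM*, *DSN1* and *SPC24*. *CENPE*, *CENPA*, *PLK1*, *CENPF*, *PMF1* and *CENPQ* kept theirs in all 12. The count of lower members ran from 21 to 24 when single libraries were left out, and was 33 under total-count scaling, 34 with limma on FPKM and 24 with DESeq2. The number of members called higher was 2 to 4. Shares of all genes called were counted only for the main fit, so these counts cannot be set against one. The members' median was -0.477 under total counts, -0.428 with log2(FPKM + 1) and -0.472 with log2(FPKM + 0.1). With single libraries left out it ran from -0.341 to -0.221. Counts and FPKM come from the same libraries, so the FPKM fits are no independent check.

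The replicate number was tried as a block although same-numbered libraries correlated at only 0.0214, -0.0077 and 0.0441. With the block 22 members were lower and 2 higher: *SPC24* (adjusted p = 0.0511), *CENPM* (0.0541) and *CENPN* (0.0677) lost their call and *SPC25* gained one (0.0338). With it the centromeric nucleosome and CCAN genes held 1 called rise, the cohesin list 0, the further checkpoint list 1 and the regulators 1.

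Called lower under total counts were 8 CCAN genes, 1 of the other CENP genes, 6 CENP-A loading, 7 cohesin and 4 regulator genes. With both FPKM fits these were 9, 1, 5, 7 and 4. The median log2 change of all genes tested was -0.182 under total counts. The share of all genes called was counted only for the main fit, so list counts from other settings cannot be set against one. Called higher under total counts and in both FPKM fits were 1 CCAN gene, 0 cohesin, 1 further checkpoint, 0 spindle pole and 1 regulator genes, and 2 anaphase-promoting genes with log2(FPKM + 1). With no filter the CCAN, cohesin and regulator lists held 1 rise each. With single libraries left out, rises numbered 1 to 3 in the CCAN, 0 to 1 in the checkpoint, 2 to 4 in the anaphase-promoting list, 0 to 2 in cohesin, 1 to 2 in the further checkpoint list and 1 to 2 in the regulators, whose falls numbered 1 to 3.

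Genes that were not called in the first place and crossed 0 took these log2 changes. With total-count scaling, *CENPH* -0.082, *SGO1* -0.116, *MAD1L1* -0.140, *ZW10* -0.090, *TTK* -0.017. With limma, log2(FPKM + 1), *CENPH* -0.061, *SGO1* -0.088, *MAD1L1* -0.111, *ZW10* -0.085, *TTK* -0.012. With limma, log2(FPKM + 0.1), *CENPH* -0.079, *SGO1* -0.099, *MAD1L1* -0.124, *ZW10* -0.090, *TTK* -0.014. With single libraries left out the ranges were *NSL1* -0.387 to 0.0424, *CENPK* -0.125 to 0.108, *CENPH* -0.00461 to 0.236, *SKA1* -0.00657 to 0.625, *NUSAP1* -0.174 to 0.227, *BUB3* -0.0293 to 0.0128, *MAD1L1* -2.6e-05 to 0.095, *FOXM1* -0.641 to 0.137. The cause was not tested.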

Other observations

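Levels per transcript length spanned a wide range among the 53 genes. By the authors' mean FPKM in DMSO the highest were *TPX2* (137 ± 2.47, SD, n = 3), *ANLN* (54.8 ± 3.24), *AURKA* (49.7 ± 15.9) and *CENPB* (48.9 ± 1.2). *AURKA* does not differ from *ANLN* or *CENPB* beyond its own spread, and whether *ANLN* and *CENPB* differ was not tested. The lowest were *NSL1* (1.55 ± 0.493), *CENPC* (2.55 ± 0.0675) and *HMMR* (2.85 ± 0.190). Across the 53 genes the log2 FPKM in DMSO and the log2 change had a Spearman correlation of -0.26 and a Pearson correlation of -0.22, given as a description: genes are not independent replicates, and both measures use the same DMSO libraries.

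In the CENP-T/W/S/X complex the histone-fold subunit *CENPW* stood at 36.4 ± 0.834 FPKM in DMSO and 37.3 ± 2.38 in DSF/Cu, against 3.39 ± 0.269 and 3.42 ± 0.153 for its direct partner *CENPT*. In the passenger complex *CDCA8* was 4.02 times *BIRC5* in DMSO and 2.67 times in DSF/Cu, and in the Ska complex *SKA3* was 3.46 times *SKA1* in DMSO, where *SKA1* was low in replicate 3, and 1.45 times in DSF/Cu.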
